A study of Mus musculus with 12 samples.

Results

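The mitochondrial integrated stress response was followed through 31 genes fixed by name: the transcription factors ATF4, ATF5 and CHOP, targets of ATF4, enzymes of serine, proline and one-carbon metabolism, amino acid carriers, tRNA synthetases and the secreted hormones FGF21 and GDF15. All 31 were found among the 54751 features of the deposited table of whole-heart RNA. Of these, 27 had a mean of at least 10 normalised counts over the 6 libraries and were tested. The 4 others, Phgdh, Pycr1, Fgf21 and Slc7a11, lay below a mean of 10 and are given as values only.

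The hearts came from C57BL/6N mice aged 52 weeks, and all carried loxP sites on both alleles of Rexo2, which encodes an oligoribonuclease of mitochondria and cytosol. The 3 control libraries carried those alleles alone, and the 3 knockout libraries carried in addition an allele that the labels write as +/Ckmm, named after muscle creatine kinase, whose promoter commonly drives Cre in heart and skeletal muscle. Non-muscle cells of such a heart would keep the gene, and the Ckmm allele and the loss of Rexo2 cannot be told apart. Libraries are named by group and the number in the table's columns, such as control 490, and nothing ties a library to its own animal, so p-values measure the spread of these samples only, and that spread may be technical.

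In this pathway, stress in mitochondria is relayed by the protease OMA1 and its substrate DELE1 to a kinase that phosphorylates the translation factor eIF2. Most translation then slows while that of Atf4 mRNA increases, and ATF4 protein induces genes that make, import and charge amino acids. In mouse hearts with defects of mitochondrial gene expression, this programme and its hormones Fgf21 and Gdf15 are known to be induced. ATF4 is controlled largely in translation, so its mRNA level is not a measure of its protein.

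Depth ran from 41979163 to 50764023 reads per library. Values are given in the order control 490, 498 and 502, then knockout 492, 499 and 501. Rexo2 itself held 330, 368 and 293 normalised counts in the controls and 274, 288 and 314 in the knockout-labelled libraries. These groups overlapped (limma adjusted p = 1.00), and since the sources used here do not name the deleted exons, the count does not check the labels. In the whole table, limma called 4 of 18250 features, all lower. That number was 8 without control 490 and 1 without control 498, control 502 or knockout 499.

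ATF4 binds a composite C/EBP-ATF element, and the sequences below show where members carry its core. The stretch searched ran from 250 bases before to 50 bases after a RefSeq start site (GRCm38.p6). Some members have several such sites, with 29 promoters for the 25 members used. The core was searched as TGATGNAA, or TTNCATCA on the opposite strand. It lay in 8 of the 25 members whose promoters were used, 32%, against 4.51% of 27024 genes and 3.97% of 32850 promoters of the same length. The members were chosen to include targets of ATF4, so a higher share follows from that choice and is no finding about these hearts. Slc7a5, Aldh1l2, Cth, Wars and Nars had no entry. Each line gives 30 bases of the gene's own strand, 5′ to 3′, with the core in capitals.

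Asns: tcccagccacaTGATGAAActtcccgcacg
Chac1: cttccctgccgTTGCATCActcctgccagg
Fgf21: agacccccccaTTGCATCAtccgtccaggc
Nupr1: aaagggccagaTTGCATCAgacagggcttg
Pycr1: tgccctgtgtaTGATGCAAtgcacaaggct
Slc7a11: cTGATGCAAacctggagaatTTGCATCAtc
Trib3: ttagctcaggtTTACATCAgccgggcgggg
Vldlr: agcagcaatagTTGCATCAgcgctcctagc

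The windows are chr6:7693214-7693243 on the minus strand for Asns and chr2:119351038-119351067 on the plus strand for Chac1. Those of Fgf21, Nupr1 and Pycr1 are chr7:45615611-45615640, chr7:126625562-126625591 and chr11:120643833-120643862, all on the minus strand. Slc7a11 lies at chr3:50443651-50443680 and Trib3 at chr2:152344028-152344057 on the minus strand, and Vldlr at chr19:27216809-27216838 on the plus strand. The first base of the core was 23 bases before the start site in Asns (position -23), and at -193 in Chac1, -139 in Fgf21, -110 in Nupr1, -103 in Pycr1 and -200 in Vldlr. Slc7a11 held 2 cores, at -66 and -47. In Trib3 the core began at position 15 after the start site. The start sites used for Slc7a11 and Vldlr lay inside the RefSeq spans of these genes, not at their outer ends. A match describes these letters and does not show that a factor binds there.

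None of the 27 tested members was called. By limma, 0 were higher and 0 lower at an adjusted p under 0.05, and the adjusted p was 1.00 for each of the 27. Over all 18250 features tested, 0.0219% were called. At an unadjusted p under 0.05 there was 1 member, Aldh1l2, where 3.7% of all features lay under that value. edgeR on the recovered reads also called 0 members, where 0.0274% of all features were called, and had 1 member at an unadjusted p under 0.05, where 3.78% of all features lay. DESeq2 on the same reads called 0 of the 13 members to which it gave an adjusted p, and the authors' deposited table likewise called 0 of 13. Each called 0.437% of the features it adjusted. Each also had 1 member at an unadjusted p under 0.05, as had 1% of features with DESeq2 and 0.999% in the authors' deposited table. These hearts are bulk tissue, in which fewer cells of a type and less RNA per cell cannot be told apart.

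The members' log2 fold changes, knockout minus control, ran from -0.48 for Aldh1l2 to 0.42 for Nupr1. Their median was 0.032, beside 0.00056 for all features tested, and 17 of 27 lay above 0, where 50.2% of all features did. The 95% interval lay wholly below a 2-fold rise in 27 of 27 members, beside 95% of all features. It lay below a 1.5-fold rise in 19 of 27, or 70.4%, beside 82.2% of all features. The median standard error was 0.179 for the members and 0.124 for all features, and 15 of the 31 members had a mean of at least 100 normalised counts. The plot of fold changes by role shows the narrowest intervals in Vldlr and Lonp1 and the widest in Gdf15.

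**Figure D1:**
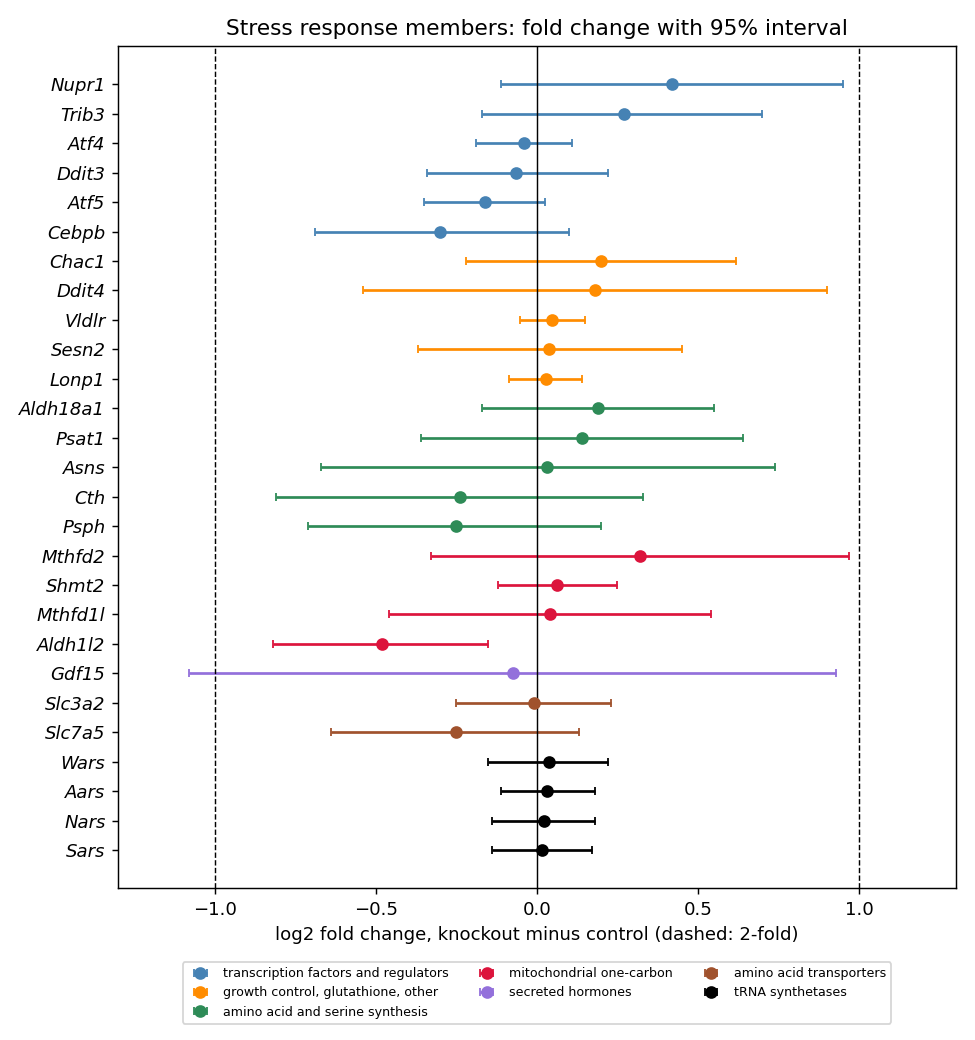
Log2 fold change (knockout minus control, horizontal axis) with its 95% limma interval for the 27 tested members, coloured by role. All 27 intervals end below the dashed line of a 2-fold rise, and the interval of Aldh1l2 (-0.82 to -0.15) alone does not cover 0.

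Among the transcription factors, Atf4 (ENSMUSG00000042406.8, chromosome 15, 80255184 to 80257545), the central activator, held 946, 800 and 891 normalised counts in the controls. In the knockout-labelled libraries it held 877, 832 and 851, inside the control range. Its log2 fold change was -0.040 with a 95% interval from -0.19 to 0.11, that is, from 0.876-fold to 1.08-fold. Without control 490 the value was 0.015.

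Atf5 (chromosome 7, 44812256 to 44816658), a related factor linked to the mitochondrial unfolded protein response, held 275, 291 and 284 in the controls and 249, 245 and 265 in the knockout-labelled libraries. All 3 knockout values lay below all 3 control values. The group values were 284 ± 8.12 and 253 ± 10.6 (SD, n = 3), and the log2 fold change was -0.16 with an interval from -0.35 to 0.025 (limma unadjusted p = 0.0838, adjusted 1.00). Its span overlaps Nup62 and Il4i1b in the RefSeq annotation, and the sources used here do not say whether counting used the strand.

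Ddit3 (chromosome 10, 127290793 to 127296291), which encodes CHOP, held 256, 274 and 248 in the controls and 312, 234 and 208 in the knockout-labelled libraries. The highest and the lowest value were both in knockout-labelled libraries, and the log2 fold change was -0.065, or 0.062 without knockout 501. Its span overlaps Mbd6 and Mars1. A second row of the same symbol was 0 in all libraries and was not used.

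Trib3 (chromosome 2, 152337425 to 152344060), a pseudokinase that ATF4 and CHOP induce, held 42.0, 39.5 and 42.7 in the controls and 46.2, 43.6 and 62.0 in the knockout-labelled libraries. The groups did not overlap, though knockout 499 lay within 1 normalised count of control 502, and knockout 501 stood above the rest. The log2 fold change of 0.27, with an interval from -0.17 to 0.70, was 0.11 without knockout 501.

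Nupr1 (chromosome 7, 126623246 to 126625470), a small stress-induced nuclear protein, held 21.4, 30.1 and 22.4 in the controls and 30.1, 33.1 and 36.1 in the knockout-labelled libraries. Control 498 and knockout 492 met at 30.1, so the groups touched. The group values were 24.6 ± 4.74 and 33.1 ± 3.02 (SD, n = 3), and the log2 fold change was 0.42, with an interval from -0.11 to 0.95 and a limma unadjusted p of 0.108. Only 173 reads were recovered for it over the 6 libraries.

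Cebpb (chromosome 2, 167688915 to 167690432), a C/EBP factor that can pair with ATF4, held 382, 315 and 268 in the controls and 218, 213 and 373 in the knockout-labelled libraries. Its log2 fold change was -0.30 with an interval from -0.69 to 0.10. Without knockout 501, which was level with the highest control, it was -0.56, and without knockout 499 it was -0.16, neither of them called. Of the 6 genes of this role, 2 were above 0.

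Among the amino acid and serine enzymes, 5 of 7 were tested, with 0 called by limma and 3 above 0. Psph (chromosome 5, 129765558 to 129787443), the last step of serine synthesis, held 55.4, 60.2 and 47.8 in the controls and 59.0, 38.8 and 40.6 in the knockout-labelled libraries. Knockout 492 lay within the controls while 499 and 501 lay below them, and the log2 fold change was -0.25 with an interval from -0.71 to 0.20. Its span overlaps Cct6a.

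Aldh18a1 (chromosome 19, 40550257 to 40588463), which opens proline synthesis from glutamate, held 92.0, 139 and 93.6 in the controls and 109, 122 and 134 in the knockout-labelled libraries. Control 498 was the highest of the 6, so the groups overlapped, and the log2 fold change was 0.19 with an interval from -0.17 to 0.55.

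Psat1, the transaminase of serine synthesis, had a log2 fold change of 0.14 and ran from 31.3 to 51.1 normalised counts over the 6 libraries. Cth, which makes cysteine from cystathionine, had one of -0.24 and ran from 18.9 to 33.6, and its value was -0.049 without knockout 499 and -0.42 without knockout 492. Asns, asparagine synthetase and a classical ATF4 target, had one of 0.033, with its libraries described below. Phgdh, the first enzyme of serine synthesis, lay between 3.05 and 9.40 in the controls and between 7.51 and 9.47 in the knockout-labelled libraries. Pycr1, the last step of proline synthesis, lay between 9.40 and 10.7 and between 5.37 and 16.9. Reads were few, 45 for Phgdh and 59 for Pycr1 in all, so neither was tested, and the groups overlapped in both.

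Among the mitochondrial one-carbon enzymes, Aldh1l2 (ENSMUSG00000020256.14, chromosome 10, 83487447 to 83534146), the mitochondrial 10-formyltetrahydrofolate dehydrogenase, lay lower in the knockout-labelled hearts. It held 140, 120 and 111 in the controls and 105, 81.4 and 79.0 in the knockout-labelled libraries. All 3 knockout values were below all 3 control values, with knockout 492 close to control 502. The group values were 124 ± 15.0 and 88.5 ± 14.5 (SD, n = 3), or 0.715-fold with an interval from 0.568 to 0.899, and on the log2 scale -0.48 (SE 0.154). limma gave an unadjusted p of 0.00738 and an adjusted p of 1.00, and edgeR gave 0.00764 and 1.00, so it was not called. DESeq2 and the authors' deposited table gave it no adjusted p. Its span overlaps the lncRNA gene Gm51778, and among other members those of Shmt2, Wars and Aars overlap the coding genes Ndufa4l2, Wdr25 and Ddx19b.

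The other one-carbon enzymes had values above 0, and their difference from Aldh1l2 was not tested. Shmt2, which splits serine into glycine and a one-carbon unit, ran from 335 to 397 over the 6 libraries, and its log2 fold change was 0.064 with an interval from -0.12 to 0.25. Mthfd2, a mitochondrial folate enzyme commonly induced with this response, had one of 0.32 with an interval from -0.33 to 0.97, and ran from 16.1 in control 490 to 36.9 in knockout 499. Without control 490 its value was 0.0047. Mthfd1l, which releases formate, had one of 0.040 and ran from 27.7 to 40.4. The 4 enzymes thus had 3 values above 0 and the lowest value of all members.

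Of the secreted hormones, Fgf21 (chromosome 7, 45613890 to 45615490) was represented by 1 read in control 498 and 0 reads in the other 5 libraries. The 3 knockout-labelled libraries together held 0 reads, which allows up to 3 reads over the group (an upper 95% limit taken on that side alone, counting error only), so no fold is given. Gdf15 (chromosome 8, 70629393 to 70632470) held 11.6, 42.3 and 38.7 normalised counts in the controls and 12.9, 38.8 and 32.7 in the knockout-labelled libraries. One library of each group was low and the others lay from 32.7 to 42.3. The log2 fold change of -0.073 had an interval from -1.08 to 0.93. It was -0.64 without control 490, 0.39 without knockout 492, 0.25 without control 498 and 0.18 without control 502, so single libraries set its sign.

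The receptors of these hormones formed a list of 7 genes, of which 3 were tested, with limma calling 0 and 0 at an unadjusted p under 0.05. Klb, the co-receptor of FGF21, and Gfral, the GDF15 receptor known from the hindbrain, were at 0 counts in both groups. Ret, the signalling partner of GFRAL, had a log2 fold change of -0.11, and Fgfr3 had one of 0.047, which was -0.067 without knockout 501 and -0.051 without control 502.

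Slc7a5 (chromosome 8, 121881146 to 121907686), the light chain of the large neutral amino acid transporter, held 69.7, 76.1 and 59.0 in the controls and 49.4, 57.8 and 64.3 in the knockout-labelled libraries. Only knockout 501 exceeded the lowest control, and the log2 fold change was -0.25 with an interval from -0.64 to 0.13. Its heavy chain Slc3a2 ran from 254 to 333, and its log2 fold change was -0.0096, whose sign turned without 4 of the 6 libraries in turn. Slc7a11, the cystine carrier that also pairs with Slc3a2, held 11 reads over the controls and 7 over the knockout-labelled libraries, with exact Poisson 95% intervals of 5.49 to 19.7 and 2.81 to 14.4 that cover counting error only.

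The 4 cytosolic tRNA synthetases had small differences and narrow intervals. Sars, which charges serine tRNA, held 479 ± 4.87 and 485 ± 22.5 normalised counts (SD, n = 3), a log2 fold change of 0.017. Nars, for asparagine, held 638 ± 20.4 and 649 ± 50.7, with 0.021, and Aars, for alanine, held 528 ± 11.7 and 540 ± 14.6, with 0.032. Wars, for tryptophan, held 521 ± 23.5 and 537 ± 60.2, with 0.037. The upper ends of the 4 intervals lay between 1.13-fold and 1.17-fold, so a rise beyond that lay outside each interval. The sign of Sars turned without knockout 499 (-0.015), that of Wars without knockout 492 (-0.051) and that of Nars without knockout 499 (-0.022), knockout 501 (-0.0015) or control 502 (-0.0053).

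Lonp1 (chromosome 17, 56614297 to 56626903), the ATP-dependent protease of the mitochondrial matrix, had the smallest ratio of highest to lowest library among the tested members, 1.04. It held 1310, 1284 and 1305 in the controls and 1312, 1328 and 1337 in the knockout-labelled libraries. The groups did not overlap, yet the log2 fold change was only 0.029, with an interval from -0.085 to 0.14 and a limma unadjusted p of 0.595. That interval is wider than the spread of these 6 values, since limma draws each gene's variance towards that of genes of like level. Vldlr, the very-low-density lipoprotein receptor, held 8099 ± 373 and 8363 ± 153 (SD, n = 3), a log2 fold change of 0.047.

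Chac1, which degrades glutathione, had a log2 fold change of 0.20, which was 0.014 without knockout 501, its highest library at 98.1 normalised counts. Sesn2, a leucine sensor that restrains mTORC1, had one of 0.039 and ran from 59.9 to 93.6. Its sign turned without control 490 (-0.12) or knockout 501 (-0.10). Ddit4, or REDD1, a second brake on mTORC1, had one of 0.18 with an interval from -0.54 to 0.90.

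Groups did not overlap in 4 of the 27 tested members, 14.8%, beside 9.51% of all features. Aldh1l2 and Atf5 lay lower in the knockout-labelled libraries, as 4.9% of all features did without overlap, and Trib3 and Lonp1 lay higher, as 4.61% did. The 5 tested members found to carry the core of the ATF4 element, Asns, Chac1, Nupr1, Trib3 and Vldlr, all lay above 0, with a median of 0.20 on the log2 scale, and 0 were called by limma, with 0 at an unadjusted p under 0.05. The carriers below a mean of 10, which were not tested, had lower means in the knockout-labelled libraries, with overlap in each. Pycr1 had 10.1 in control and 9.64 in knockout-labelled libraries, Slc7a11 3.36 and 2.46, and Fgf21 0.313 and 0. Of the 16 tested members whose promoters were used and held no core, 9 lay above 0, with a median of 0.023. The sign of Asns turned without control 490 (-0.19), knockout 499 (-0.12) or knockout 501 (-0.070), so the count of 5 did not hold in those fits. Without knockout 501, Chac1 fell to 0.014 and Trib3 to 0.11. Leaving out 1 library in turn gave 0.33 to 0.57 for Nupr1 and 0.011 to 0.077 for Vldlr. The difference between members with and without a core was not tested.

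**Figure D2:**
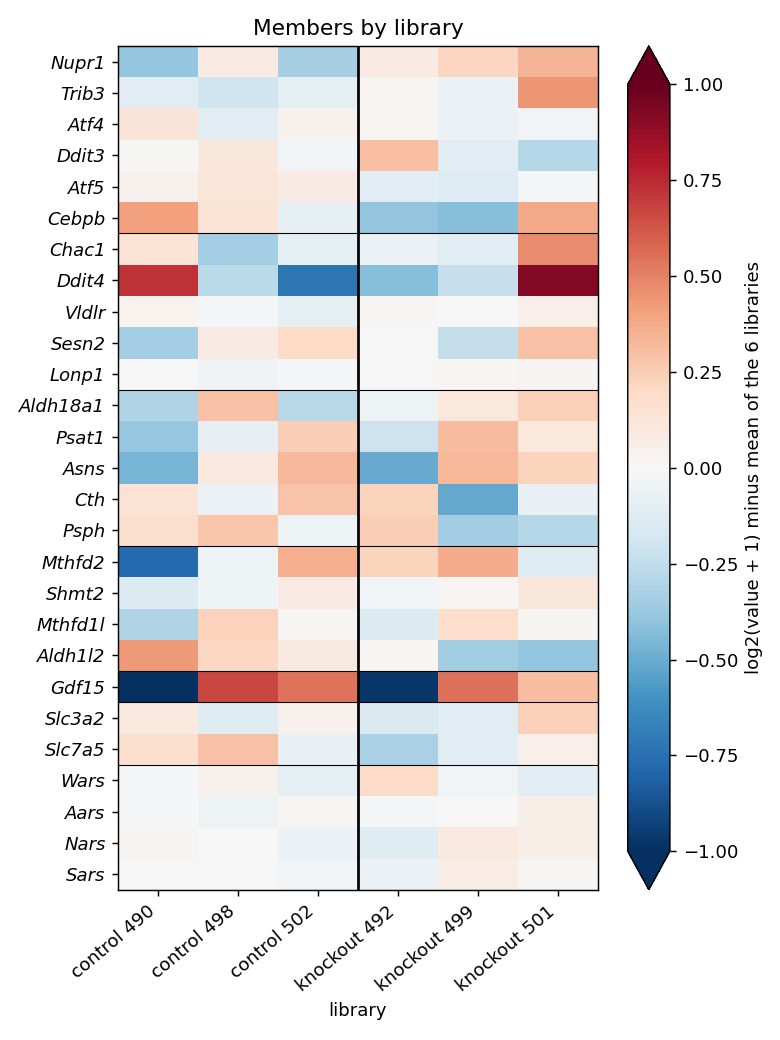
Each tested member (rows, grouped by role) in each library (columns), as log2(value + 1) minus its mean over the 6 libraries; red is higher and blue lower, and colours end at the limits of the scale. Gdf15 is deep blue in control 490 and knockout 492, and Ddit4 is deep red in control 490 and knockout 501.

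Several members differed more between libraries of a group than between the groups. The genes in this and the next paragraph were picked after their values were seen. Ddit4 (chromosome 10, 59949675 to 59951770) held 485, 244 and 178 normalised counts in the controls and 219, 251 and 557 in the knockout-labelled libraries, a 3.13-fold range. One library in each group stood high, and the log2 fold change was 0.58 without control 490, -0.24 without knockout 501 and -0.14 without control 502. Cebpb was highest in the same 2 libraries, at 382 and 373. Pdk4, a kinase that restrains pyruvate dehydrogenase and rises on fasting, held 5611 and 4623 in control 490 and knockout 501 and from 1338 to 3364 in the others.

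Gdf15 had the widest range of the tested members, 3.64-fold, and was low in control 490 and knockout 492. Its recovered reads there were 13 and 12, against 29 to 45 in the other libraries. Asns (chromosome 6, 7675165 to 7693209) was low in the same pair, at 14.3 and 14.0 normalised counts against 21.6 and 25.4 in the other controls and 25.6 and 23.7 in the other knockout-labelled libraries. Psat1 followed that order, at 31.3 and 35.4 against 38.5 to 51.1. Mthfd2 did not, with 16.1 in control 490 and 33.3 in knockout 492.

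**Figure D3:**
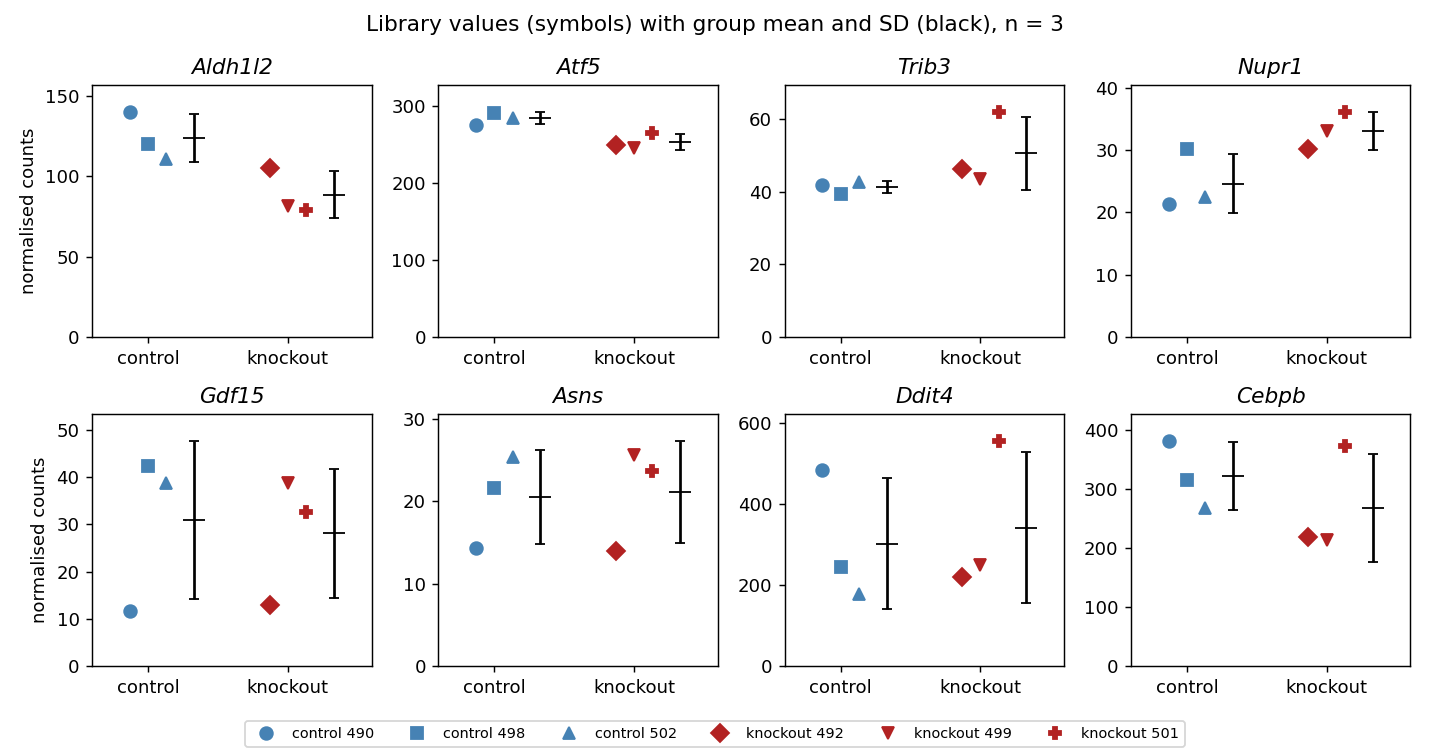
Normalised counts (vertical axis, from 0) of 8 members in each library, with the group mean and SD in black (n = 3). Aldh1l2, Atf5 and Trib3 do not overlap between groups, whereas Gdf15, Asns, Ddit4 and Cebpb each hold high and low libraries in both groups.

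Summed up by library, the median deviation of the 27 from their own means lay between -0.028 in knockout 492 and 0.055 in knockout 501 on the log2 scale. Knockout 501 was the highest library for 10 of the 27 members, where it was highest for 17.5% of all features tested. Control 490 was the lowest for 8 of the 27, where it was lowest for 18.3% of all features. These were the largest counts of each kind, named after the values were seen. Knockout 492 and 499 were highest for 2 and 5 members and lowest for 5 and 4. Control 498 and 502 were highest for 6 and 1 and lowest for 5 and 2. Over all features, each library was highest for 15.1% to 17.9% and lowest for 14.3% to 18.3%.

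Beyond the members, 8 lists of related genes held 119 genes, 112 of them tested. limma and edgeR called 0 of the 112. DESeq2 and the authors' deposited table also called 0, but gave some of these genes no adjusted p. Eif2b3, Fpgs and Aldh1l1 were among those and could not be called there. Of the 112, 7 had a limma unadjusted p under 0.05 (3.7% of all features had), and 57 lay above 0 (50.2% of all features did). The plot of these lists shows medians between -0.061 and 0.055 for their log2 fold changes.

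**Figure D4:**
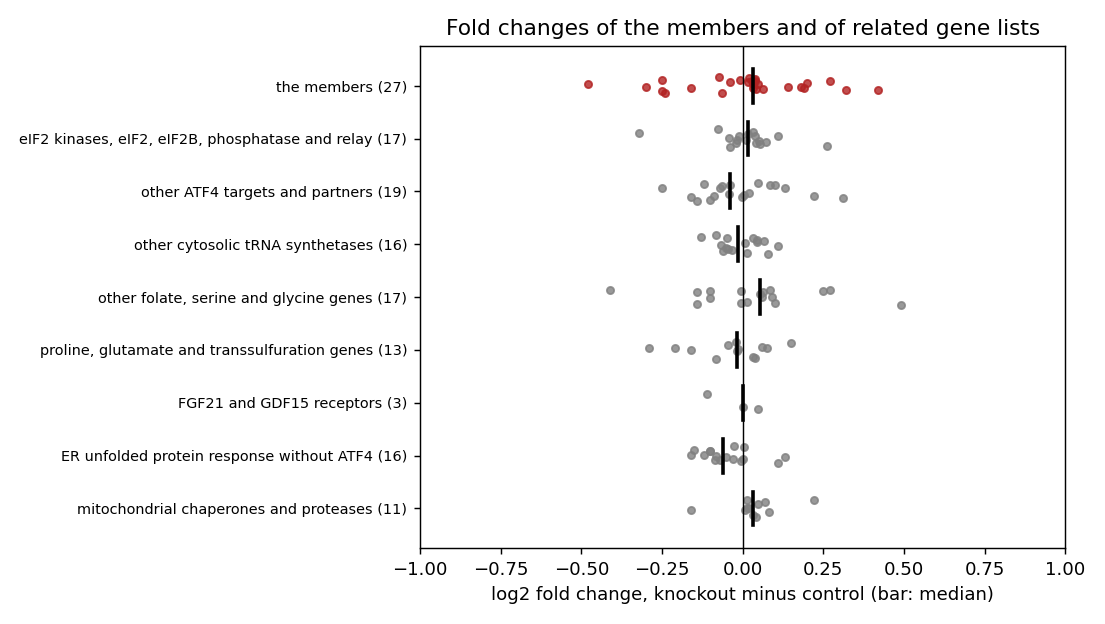
Log2 fold change (knockout minus control, horizontal axis) of each tested gene of the members and of 8 related lists, 1 point a gene, with the number tested in parentheses and a bar at the median. All medians lie near 0, from -0.061 for the ER unfolded protein response to 0.055 for the folate list.

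Upstream of ATF4, the list of eIF2 kinases, eIF2 and eIF2B subunits, phosphatase subunits and the OMA1-DELE1 relay had 10 of 17 above 0 and a median of 0.017. Eif2ak2, or PKR, a kinase activated by double-stranded RNA and induced by interferon, held 263, 315 and 281 in the controls and 355, 354 and 320 in the knockout-labelled libraries. The groups did not overlap, and its log2 fold change was 0.26 with an interval from 0.063 to 0.47 (limma unadjusted p = 0.0140, adjusted 1.00). Eif2b3, a subunit of the exchange factor eIF2B, had one of -0.32 with an interval from -0.75 to 0.11, and its log2 fold change was -0.12 without control 498 and -0.50 without knockout 492. Named for their role after their values were seen, the other kinases had values of 0.011 for Eif2ak1 (HRI, the kinase that DELE1 activates), -0.010 for Eif2ak3 (PERK) and 0.050 for Eif2ak4 (GCN2). Oma1 lay at 0.041 and Dele1 at -0.019.

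Other targets and partners of ATF4 had 8 of 19 above 0 and a median of -0.040. Slc7a1, a carrier of cationic amino acids, held 839, 922 and 995 in the controls and 838, 823 and 659 in the knockout-labelled libraries, with a log2 fold change of -0.25 (limma unadjusted p = 0.0164, adjusted 1.00). Slc1a5, a glutamine carrier, had one of -0.16 without overlap. Other cytosolic tRNA synthetases had 8 of 16 above 0 and a median of -0.013, with Tars at 0.11 and Rars at -0.13.

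The folate, serine and glycine list had 10 of 17 above 0 and a median of 0.055. Fpgs, which adds glutamates to folate, held 73.2 ± 6.59 and 55.2 ± 7.58 (SD, n = 3), a log2 fold change of -0.41 without overlap (limma unadjusted p = 0.0350, adjusted 1.00). Aldh1l1, the cytosolic counterpart of Aldh1l2, had one of 0.49 with an interval from -0.0088 to 1.00, opposite in sign to Aldh1l2, and its groups overlapped. The difference between these 2 genes was not tested.

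In the proline, glutamate and transsulfuration list, 5 of 13 lay above 0 with a median of -0.017. Oat, ornithine aminotransferase of the mitochondrial matrix, held 1673, 1700 and 1656 in the controls and 1424, 1440 and 1483 in the knockout-labelled libraries. Each group was tight and the groups lay well apart, with a log2 fold change of -0.21 and an interval from -0.32 to -0.10 (limma unadjusted p = 0.00124, adjusted 0.44). Prodh, which begins proline breakdown, had one of -0.29 with overlap.

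The arm of the unfolded protein response in the endoplasmic reticulum that does not need ATF4 had 4 of 16 above 0 and a median of -0.061. Hspa5, the chaperone BiP, had a difference of -0.16 (log2) with overlap, and Xbp1 had one of -0.15 without overlap. Mitochondrial chaperones and proteases, which mark stress of protein folding in the matrix, had 10 of 11 above 0 with a median of 0.033. Of all features 50.2% lay above 0, and the difference was not tested. Several values barely exceeded 0, such as Yme1l1 (0.0085), Hspd1 (0.013) and Hspe1 (0.015). Clpp, a matrix protease, had a log2 fold change of 0.22 with an interval from 0.023 to 0.41 and no overlap (limma unadjusted p = 0.0310, adjusted 1.00). Spg7, an inner membrane protease, had one of -0.16 with overlap.

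Markers of heart muscle summed to between 507195 and 561138 normalised counts over all libraries. Fibroblast markers summed to 8244 to 8383 in control and 8092 to 8960 in knockout-labelled libraries, macrophage markers to 2846 to 3422 and 3157 to 3626, endothelial markers to 10425 to 11896 and 11026 to 11582, smooth muscle and pericyte markers to 17650 to 17788 and 17518 to 18277, and erythroid markers to 13536 to 17727 and 13310 to 18294. All of these sums overlapped between groups. limma called 0 of the 45 tested marker genes, and edgeR and DESeq2 also called 0. DESeq2 gave some of them, Adgre1 among them, no adjusted p and could not call those. At a limma unadjusted p under 0.05 there were 2, Adgre1 (0.35) and Acta1 (0.64). The others of smallest p were Col3a1 (-0.12) and Dcn (0.080) of fibroblasts, Lyz2 (0.14) of macrophages, Eng (0.071) and Emcn (0.10) of endothelium, Acta2 (0.18) and Cspg4 (-0.088) of smooth muscle and pericytes, Alas2 (-0.10) and Hbb-bs (0.044) of red cells, Ckm (0.042) of skeletal muscle, and Nppa (-0.20) and Ryr2 (-0.077) of heart muscle. The skeletal muscle sum was 15700 to 17054 in control and 18209 to 19479 in knockout-labelled libraries without overlap, made up almost wholly of Acta1 and Ckm, which heart also expresses, while Myh1, Myh2, Myh4, Tnnt3 and Mybpc1 lay below a mean of 10. All 7 adipocyte and all 6 liver markers also lay below a mean of 10. The liver sum was 55.9 in knockout 499 and between 3.05 and 6.58 in the others. The part of these markers in the members' values was not tested.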

How the data were processed

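Libraries of total heart RNA were made with cytoplasmic rRNA depleted and random hexamer priming, per the labels' protocols. The authors deposited a signal per gene, named normalised counts, for which the submitters' processing notes list Bowtie2 2.3.4.1, featureCounts, bedtools, DESeq2 1.22.2 and R 3.5.2. The authors' deposited DESeq2 table gives log2 fold changes, a test score and p-values, and a missing adjusted p was kept missing. Libraries of mitochondrial RNA ends are not analysed here. Dividing each library's values by its smallest nonzero value gave whole reads for 100% of 156689 nonzero values within 0.01.

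Ensembl identifiers were joined to symbols for 54686 of 54715 features, and the highest-mean row was used. Positions are RefSeq's, on GRCm38.p6, and 1 member's promoter is not reported here. Groups come from column names, which carry no replicate number.

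limma 3.58.1 with a trended prior (R 4.3.3, 2-sided, Benjamini-Hochberg over all features) was run on log2(value + 1), which understates changes of low genes, for 18250 features with a mean of at least 10. Named with library values are Atf4, Atf5, Ddit3, Fgf21, Gdf15, members without overlap and the 8 of smallest p, with Asns and Ddit4 added after their values were seen; of other lists, the 2 of smallest p. Alternatives were pseudocount 5, no filter, 2 scalings, no trend, edgeR 4.0.16 and DESeq2 1.42.0 on recovered reads, the deposited table and leaving out each library. The members and lists were chosen with earlier results of these data known.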

Additional observations from a re-analysis of the deposited data

How the results depend on the processing

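No member was called in any of the 14 alternatives. With DESeq2 and in the authors' deposited table only 13 members had an adjusted p. Aldh1l2 had none there and could not be called. The members' median log2 fold change stayed between 0.010 and 0.059, within 0.034 (the spread of the median between libraries of a group) of the reported value. Of 378 member values under alternatives, 353 kept their sign, and 15 of the 27 tested members kept it throughout. Scaling to equal totals without mtDNA features turned Slc3a2 to 0.018. Leaving out 1 library in turn gave log2 fold changes from -0.11 to 0.015 for Atf4, -0.23 to 0.062 for Ddit3, -0.19 to 0.29 for Asns, -0.012 to 0.30 for Psat1, -0.10 to 0.17 for Mthfd1l, -0.64 to 0.39 for Gdf15, -0.12 to 0.17 for Sesn2, -0.24 to 0.58 for Ddit4, -0.13 to 0.062 for Slc3a2, -0.015 to 0.052 for Sars, -0.022 to 0.086 for Nars and -0.051 to 0.10 for Wars. Outside the members it gave -0.067 to 0.15 for Fgfr3, -0.027 to 0.23 for Emcn and -0.066 to 0.15 for Hbb-bs. The 4 features called in the whole table became 12 without the filter, 0 without a trended prior, and 33 both with DESeq2 and in the authors' deposited table, and from 1 to 8 without 1 library. The 0 called higher became 1 without the filter, under TMM or under equal totals, 2 with edgeR, 4 with DESeq2 and in the authors' deposited table, and 0 to 1 without 1 library. The cause was not tested. No paired analysis was possible because the table's columns carry no replicate numbers. Depth limits Fgf21, Slc7a11, Phgdh and Pycr1.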
